A study of Homo sapiens with 64 samples.

Results

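RKO and SW48, the pair of colorectal cancer lines that the study placed in subtype CCS2, were compared in their cycling cells. Of the 64 libraries of the series, 8 entered the comparison, 4 of RKO and 4 of SW48, chosen by their labels as non-LRC libraries of these lines. Both lines received no drug treatment and were stained with CFSE, a dye that is diluted by each division. They were grown as spheroids, by the study's methods in serum-free medium with added EGF and bFGF. On day 6 the cells were sorted into label-retaining cells (LRCs) and the dye-diluted bulk, the non-LRCs. Each group was 1 established line in biological quadruplicate, so n = 4 counts cultures, and a difference between the groups is a difference between these lines, with no second line of either kind. RKO and SW48 are both used as models of mismatch-repair-deficient, CpG-island-methylated tumors. RKO has intact APC and beta-catenin genes and an activating BRAF mutation, whereas SW48 carries an activating mutation of beta-catenin. Colon epithelium is held together by E-cadherin junctions, desmosomes and keratins, it renews under Wnt signals that are answered by feedback inhibitors such as AXIN2, and BMP signals oppose those Wnt signals toward the lumen. Carcinoma cells that leave this state often gain the repressor ZEB1 and the filament protein vimentin.

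Between 13410871 and 17334036 reads per library were counted on genes. Levels are given in CPM, counts scaled to a common library size, which compare a gene between libraries and not genes with each other, and 3 reads corresponded to 0.173 to 0.224 CPM, so that a gene at 0 CPM was not detectable at this depth. Libraries of 1 line correlated at 0.977 to 0.995 and libraries of different lines at 0.690 to 0.713 (Pearson's r over log2 CPM). The spread between cultures was a biological coefficient of variation of 0.0828 in RKO and 0.169 in SW48. One library stood apart. SW48 replicate 2 correlated at 0.978 to 0.985 with the other SW48 libraries, and these correlated at 0.9915 or more with each other. The correlations of this library were computed with a different small constant added before the log than the ranges above. The labels give no batch or date.

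The genes given here for SW48 replicate 2, a proliferation gene and genes of the stress response, were chosen after their values were seen and are not all those in which it stood apart. MKI67, a marker of proliferating cells, was at 47.0, 415, 131 and 181 CPM in SW48 replicates 1 to 4, against 266 to 372 CPM in RKO. ASNS, which makes asparagine, was at 604, 47.0, 561 and 536 CPM in the same SW48 libraries, and at 43.1 to 51.2 CPM in RKO. DDIT4, a stress-induced inhibitor of mTORC1, was at 529, 16.4, 289 and 417 CPM in SW48 and at 13.7 to 24.1 CPM in RKO. In all 3 genes, replicate 2 of SW48 lay near or above the RKO libraries, and the other SW48 libraries lay well away from both. The LRCs labelled SW48 replicate 2 had the same pattern, with ASNS at 54.3 CPM against 300.4 to 391.7 CPM in the other SW48 LRC libraries.

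**Figure D1:**
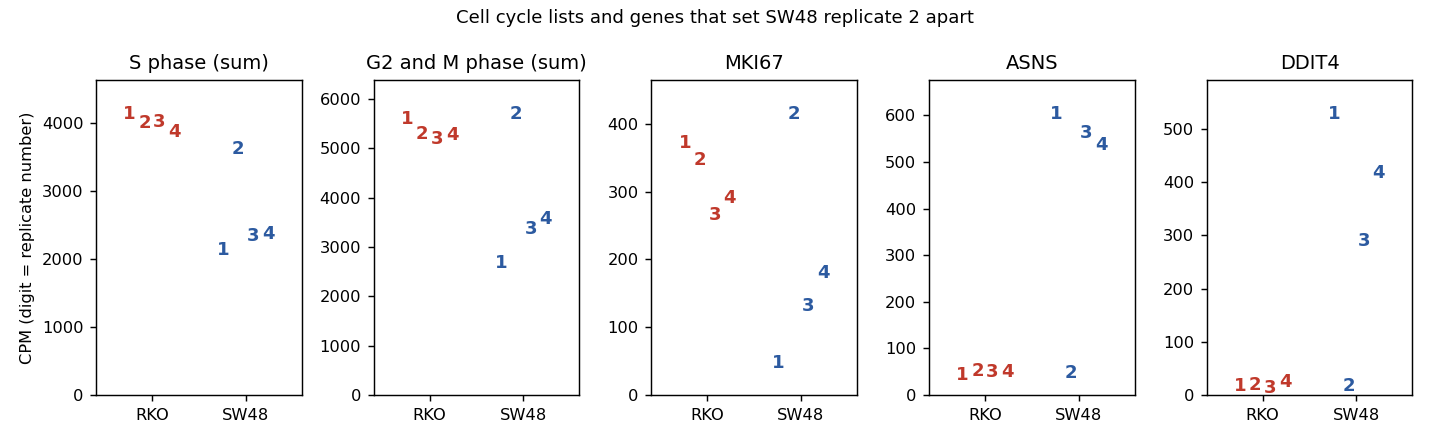
CPM (vertical axes, from 0) in the 4 RKO and 4 SW48 non-LRC libraries, each drawn as its replicate number. The S phase and G2 and M phase panels are sums over the list, and the others are single genes. SW48 replicate 2 sits with the RKO libraries in ASNS and DDIT4, while SW48 replicates 1, 3 and 4 have ASNS between 536 and 604 CPM.

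The lines differed across much of the transcriptome. Genes that reached 10 counts in 4 or more of the 8 libraries were tested, 13463 in all, and 9865 (73.3%) had an adjusted p under 0.05 in edgeR's quasi-likelihood test. Genes were called at that threshold together with a log2 difference (RKO minus SW48) of at least 1 in size, which 1924 genes (14.3%) passed as higher in RKO and 2726 (20.2%) as higher in SW48. These shares are the background against which each gene list below is read. Named list members were picked partly by small p-values, so a lack of overlap between the lines in them is a description. The share of all tested genes without overlap is not given here. The median log2 difference over all tested genes was -0.013, the median of its size was 0.639, and 1103 called genes differed by at least 5 on the log2 scale. All p-values below are two-sided, from edgeR's quasi-likelihood test with Benjamini-Hochberg adjustment over all tested genes, and errors of log2 differences are standard errors with n = 4 per line.

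**Figure D2:**
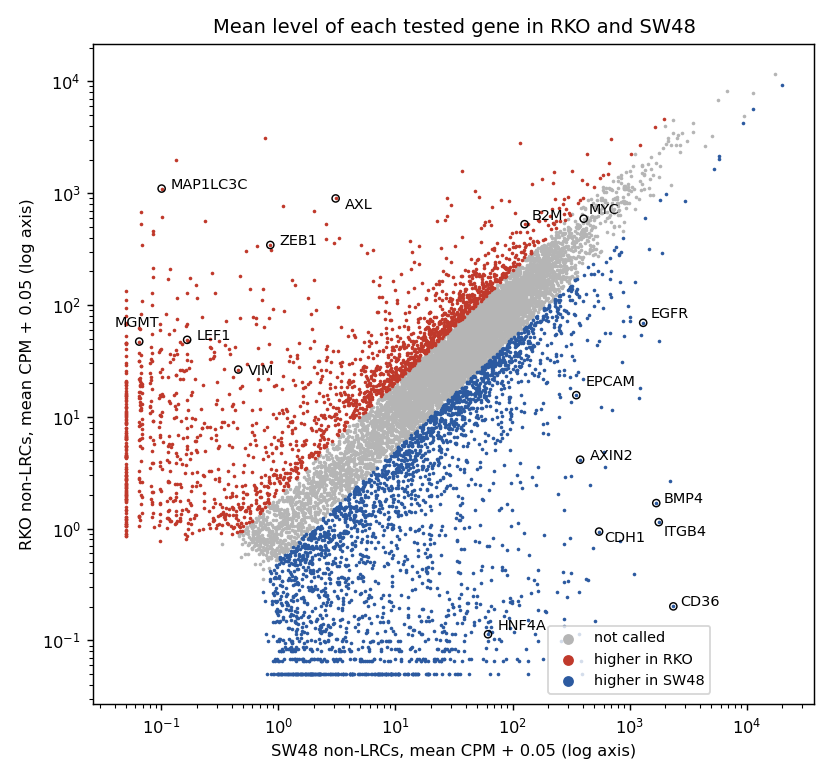
Mean CPM + 0.05 of each tested gene in RKO (vertical, log axis) against SW48 (horizontal, log axis), in gray for genes not called and in color for genes called higher in either line. CDH1 sits at 0.891 CPM in RKO and 549 CPM in SW48, ZEB1 at 344 and 0.802 CPM, and MYC near the diagonal.

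Adhesion genes of epithelium were almost all lower in RKO. Of 20 listed and tested members, 19 were called higher in SW48 and none higher in RKO, with a median log2 difference of -7.30, beside -0.013 over all tested genes. CDH1, which encodes E-cadherin, was at 1.17, 0.740, 1.06 and 0.595 CPM in RKO and at 592, 412, 611 and 582 CPM in SW48 (log2 difference -9.31 ± 0.21, adjusted p = 5.42e-12). EPCAM, the epithelial cell adhesion molecule, was at 14.3 to 16.8 CPM in RKO and 321 to 374 CPM in SW48 (-4.51 ± 0.09, adjusted p = 2.94e-12). The ranges of both genes lay far apart, and RKO kept a readable level of EPCAM while CDH1 was near the limit of detection. In a bulk library, fewer cells with a transcript and less of it per cell cannot be told apart. ST14, the membrane protease matriptase, and RAB25, a GTPase of epithelial recycling, stood at 0.355 ± 0.188 and 0.175 ± 0.104 CPM in RKO and at 269 ± 12 and 111 ± 8 CPM in SW48 (mean ± SD). The member that was not called was ESRP2, a splicing factor of epithelium, at 54.6 ± 2.6 CPM in RKO and 86.0 ± 13.7 CPM in SW48. In 18 of the 20 genes (90%), all 4 RKO libraries also lay below every one of the 20 non-LRC libraries of the other lines, which held for 12.5% of all tested genes, whereas SW48 lay below the rest in none.

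Junction proteins and keratins followed the adhesion genes. Among 23 tested tight junction and desmosome genes, 19 were higher in SW48 and 1 in RKO (median -3.88), and among 14 tested keratins 13 were higher in SW48 and none in RKO (median -8.27). DSP, the desmosomal plaque protein desmoplakin, was at 14.4, 17.1, 14.2 and 12.3 CPM in RKO and at 1056, 1188, 1306 and 1261 CPM in SW48 (-6.39 ± 0.14, adjusted p = 3.82e-12). JUP, the plakoglobin that links cadherins to filaments, was at 0.676 ± 0.2004 and 275 ± 23 CPM. KRT8, the basic keratin of simple epithelium, was at 65.6 to 81.9 CPM in RKO and 767 to 1263 CPM in SW48, and its acidic partner KRT19 was at 0.379 to 1.01 and 250 to 410 CPM. RKO thus retained KRT8 at a lower level with KRT19 near the floor. The 1 junction gene higher in RKO was CLDN12, a claudin, at 100.1 ± 12.7 against 39.0 ± 4.1 CPM. TJP1, the ZO-1 scaffold, and PKP2, a plakophilin, were not called, at 145 ± 19 against 221 ± 12 CPM and 33.0 ± 1.0 against 37.7 ± 5.8 CPM.

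**Figure D3:**
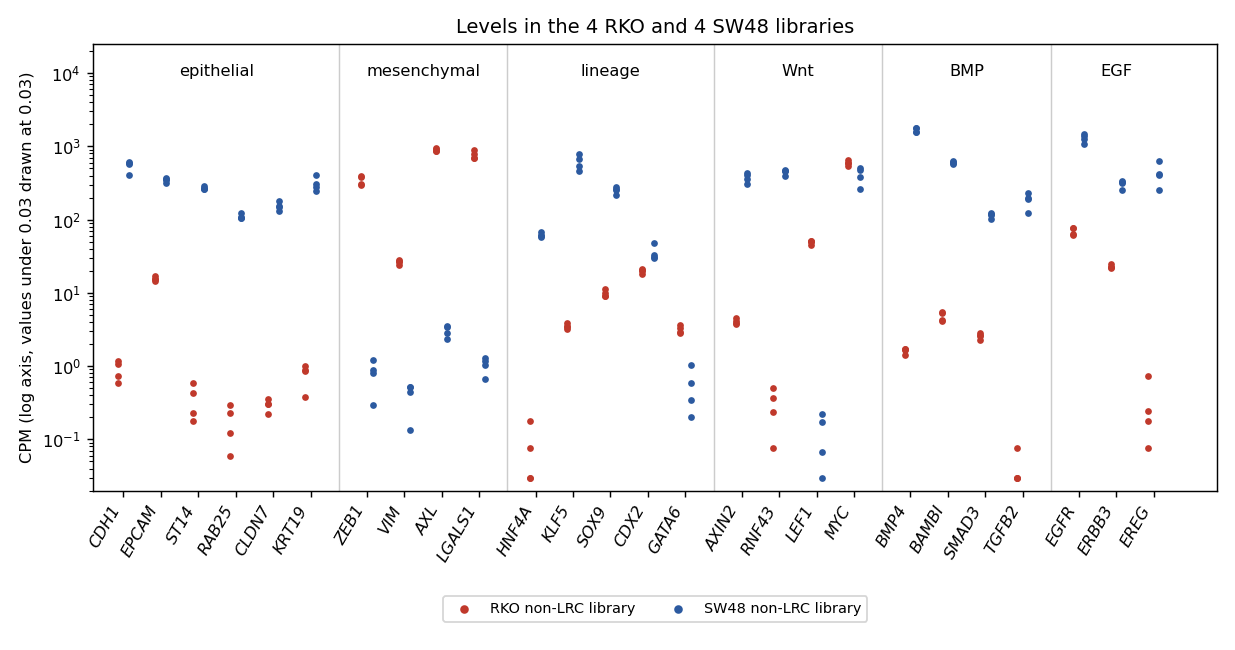
CPM on a log axis of 26 genes in the 4 RKO (red) and 4 SW48 (blue) non-LRC libraries, 1 point per library, grouped by role. The epithelial genes are all higher in SW48, the 4 mesenchymal genes drawn, picked from a list split between the lines, are higher in RKO, and CDX2 and MYC lie closest together.

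ZEB1 silences epithelial genes through E-boxes, short DNA motifs with the letters CACCTG, which read CAGGTG on the opposite strand. The upstream promoter sequences of the adhesion, junction and keratin genes higher in SW48 were read from RefSeq (GRCh38.p14), and 20 of 51 genes had an entry, with 27 promoters. Both strands were searched for this 1 motif in the 250 bases before each start, and 13 of the 27 promoters (48.15%) held it. Of all 35116 promoters in the RefSeq set, 17.5% held it. Of protein-coding genes on in SW48 and off in RKO, described below, 27.5% of 247 promoters held it, and of those on in RKO and off in SW48, 13.1% of 198. The sets also differed in bases. The median number of CpG pairs per promoter was 19 in the adhesion, junction and keratin set and 11 over all promoters. It was 12 in the genes on in SW48 and 15 in those on in RKO. The shares were not adjusted for this, a gene can count by several promoters, and the part of ZEB1 was not tested. The motif was chosen with the levels of ZEB1 known, and a match is a description of the letters and not a bound site. Promoters of 3 genes, each with 3 or more matches, are shown, with each match in capitals. These genes were chosen by their matches from a part of the promoters, and are not a ranking of all 27. CRB3, a polarity protein, lies on the plus strand at chr19:6464021-6464270, CLDN7, a claudin, on the minus strand at chr17:7262479-7262728, and AP1M2, a sorting adaptor of epithelium, on the minus strand at chr19:10587313-10587562.
CRB3: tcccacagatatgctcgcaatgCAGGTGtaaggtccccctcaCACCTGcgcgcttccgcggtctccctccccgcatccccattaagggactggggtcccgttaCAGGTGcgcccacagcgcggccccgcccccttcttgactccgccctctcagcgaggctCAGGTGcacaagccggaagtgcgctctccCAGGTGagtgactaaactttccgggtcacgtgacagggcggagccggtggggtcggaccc
CLDN7: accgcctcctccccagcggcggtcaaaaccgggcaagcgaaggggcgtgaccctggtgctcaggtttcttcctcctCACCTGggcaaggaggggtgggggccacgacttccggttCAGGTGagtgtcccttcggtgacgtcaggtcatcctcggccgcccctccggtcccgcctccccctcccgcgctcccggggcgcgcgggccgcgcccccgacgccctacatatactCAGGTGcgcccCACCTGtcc
AP1M2: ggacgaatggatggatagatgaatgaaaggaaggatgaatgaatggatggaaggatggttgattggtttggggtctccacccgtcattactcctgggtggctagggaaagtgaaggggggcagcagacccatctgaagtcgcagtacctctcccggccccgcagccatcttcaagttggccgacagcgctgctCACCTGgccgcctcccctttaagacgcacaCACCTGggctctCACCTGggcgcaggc
The CRB3 promoter held 5 matches, that of CLDN7 4 and that of AP1M2 3. CRB3 was at 0.273 ± 0.079 CPM in RKO and 16.8 ± 1.9 CPM in SW48, CLDN7 at 0.297 ± 0.057 and 153 ± 19 CPM, and AP1M2 at 0.310 ± 0.1602 and 134 ± 11 CPM.

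Genes of the mesenchymal state were split. Of 27 listed genes 15 were tested, of which 5 were higher in RKO and 7 in SW48, with a median log2 difference of -0.10. ZEB1 was at 377, 391.7, 298 and 311 CPM in RKO and at 1.21, 0.897, 0.292 and 0.810 CPM in SW48 (8.74 ± 0.23, adjusted p = 1.80e-11). AXL, a receptor tyrosine kinase, was at 852 to 954 CPM in RKO and 2.37 to 3.49 CPM in SW48, and LGALS1, galectin-1, at 700.4 to 903 and 0.672 to 1.28 CPM. In all 3 genes every RKO library lay far above every SW48 library. VIM, which encodes vimentin, was at 23.9 to 28.4 CPM in RKO and 0.134 to 0.525 CPM in SW48 (5.97 ± 0.21, adjusted p = 2.23e-10), and MSN, the membrane linker moesin, at 26.8 ± 2.8 and 0.052 ± 0.065 CPM. The members higher in SW48 included CAV1, caveolin-1, at 20.2 ± 1.0 against 194 ± 48 CPM, CALD1, an actin-binding protein, at 6.87 ± 0.81 against 39.2 ± 4.0 CPM, and PRRX1, a homeobox factor of mesenchyme, which had no read in RKO and 8.24 ± 1.73 CPM in SW48. SNAI1, a repressor of CDH1, did not differ by the test, at 9.57 ± 1.48 and 10.1 ± 1.6 CPM (adjusted p = 0.572). The other 12 members, not tested, were each at a mean of 0.782 CPM or lower in both lines.

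Transcription factors of the intestinal lineage also divided between the lines. Of 15 tested, 9 were higher in SW48 and 3 in RKO (median -4.69). HNF4A, a nuclear receptor of enterocytes, was at 0, 0, 0.0757 and 0.178 CPM in RKO and 61.7, 67.4, 58.1 and 59.5 CPM in SW48 (-9.70 ± 0.27, adjusted p = 2.49e-11). KLF5, a factor of crypt proliferation, was at 3.50 ± 0.26 and 614 ± 144 CPM, EHF, an ETS factor of epithelium, at 0.0645 ± 0.0874 and 156 ± 28 CPM, and SOX9, a factor of crypt progenitors, at 9.84 ± 0.98 and 251 ± 24 CPM. CDX2, the homeobox factor that defines intestinal identity, was read in both lines, at 18.3 to 21.4 CPM in RKO and 30.2 to 48.0 CPM in SW48, and was not called (-0.85 ± 0.15, adjusted p = 0.000258). Both lay below the non-LRC means of HT55, SW948, DLD1 and HCT15, at 302.9, 289.2, 237 and 375.6 CPM. Higher in RKO were the GATA factors GATA4, at 20.6 to 23.6 CPM against 0 to 0.0641 CPM, and GATA6, at 2.86 to 3.64 against 0.202 to 1.02 CPM.

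Many products of differentiated intestinal cells were too low to be tested. Of 25 goblet and secretory genes matched, 22 were not tested and 9 had no read in any of the 8 libraries, among them MUC2, the gel-forming mucin. Of 26 enterocyte genes, 4 of which had no read, 9 were tested, of which 7 were higher in SW48, including DPP4, a brush border peptidase, at 0.106 ± 0.134 CPM in RKO and 273 ± 50 CPM in SW48, and VIL1, villin, at 0.272 ± 0.202 and 3.27 ± 0.97 CPM. Both carbonic anhydrases among the tested genes were higher in RKO, CA12 at 26.4 ± 3.7 against 0.295 ± 0.194 CPM and CA2 at 15.8 ± 1.4 against 3.04 ± 1.53 CPM. KRT20, a keratin of differentiated colonocytes, did not exceed 0.642 CPM in any library.

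Feedback inhibitors of Wnt signaling were lower in RKO. Of 19 tested Wnt targets, 11 were higher in SW48 and 2 in RKO (median -2.30). AXIN2, a feedback inhibitor of beta-catenin, was at 3.94, 4.50, 3.79 and 4.11 CPM in RKO and 307, 436, 361 and 409 CPM in SW48 (-6.55 ± 0.15, adjusted p = 4.43e-12). RNF43 and ZNRF3, the paired ubiquitin ligases that remove Wnt receptors, were at 0.299 ± 0.186 against 445 ± 34 CPM and 21.8 ± 2.5 against 182 ± 17 CPM, and NOTUM, a secreted Wnt deacylase, at 1.64 ± 0.30 against 36.8 ± 6.2 CPM. LGR5, the crypt stem cell receptor, reached 1.63 to 4.68 CPM in SW48 and at most 0.119 CPM in RKO. In all 5 genes the SW48 libraries lay above every RKO library. LEF1, a partner factor of beta-catenin, went the other way, at 49.4, 50.8, 44.5 and 50.4 CPM in RKO and 0.0672, 0, 0.175 and 0.221 CPM in SW48 (8.62 ± 0.25, adjusted p = 3.08e-11). MYC and CD44 were not called, at 592 ± 47 against 406 ± 111 CPM and 442 ± 32 against 280 ± 25 CPM, nor was PTK7, a Wnt co-receptor, at 169 ± 14 against 262 ± 26 CPM.

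The BMP and TGF-beta genes were one-sided as well. None of 23 tested members was higher in RKO and 16 were higher in SW48, with a median of -5.26. BMP4, the ligand, was at 1.68, 1.73, 1.44 and 1.73 CPM in RKO and 1797, 1799, 1596 and 1578 CPM in SW48 (-10.02 ± 0.14, adjusted p = 8.58e-13). TGFB2, a TGF-beta ligand, had 1 read in the RKO libraries together and stood at 184 ± 45 CPM in SW48. Among transducers, SMAD3 was at 2.57 ± 0.21 and 115 ± 10 CPM, whereas SMAD2 was not called, at 97.6 ± 5.4 and 109 ± 7 CPM. Response genes were higher in SW48 too, with BAMBI, a decoy receptor, at 4.81 ± 0.67 and 607 ± 24 CPM, and the ID factors ID1, ID2 and ID3, named here after their values were seen, at means of 1.43 to 2.87 CPM in RKO and 160.1 to 281 CPM in SW48. Ligands, transducer and responders thus lay on the same side, while TGFB1 was alike, at 142 ± 6 and 150 ± 26 CPM (-0.10 ± 0.12, adjusted p = 0.471).

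In the EGF, Notch and Eph lists the called genes were all higher in SW48. In the EGF family 7 of 10 tested genes were higher in SW48 and none in RKO (median -3.32). EGFR was at 75.8, 76.7, 60.8 and 63.7 CPM in RKO and 1088, 1281, 1488 and 1375 CPM in SW48 (-4.26 ± 0.13, adjusted p = 6.89e-11), its ligand EREG at 0.0757 to 0.729 and 257 to 624 CPM, and the co-receptor ERBB3 at 22.8 ± 1.3 and 311 ± 40 CPM. For Notch 7 of 14 were higher in SW48 and none in RKO (median -0.83), with HES1, the target repressor, at 0.406 ± 0.289 and 66.4 ± 3.0 CPM, and NOTCH1 and NOTCH2 not called, at 124 ± 20 against 90.4 ± 8.9 CPM and 251 ± 40 against 167 ± 27 CPM. Eph genes divided alike, with 7 of 15 higher in SW48 and none in RKO (median -0.63), such as EPHA1 at 0.189 ± 0.192 and 95.8 ± 8.8 CPM. NOTCH1 and NOTCH2 were thus read in both lines, with the higher means in RKO, and HES1 lay near the floor in RKO. In the Hedgehog list 5 of 11 genes were higher in SW48 and 1 in RKO: GLI1, the transcriptional effector, was higher in RKO at 1.97 to 2.96 against 0.350 to 0.806 CPM, whereas GLI2 had no read in RKO and 15.5 ± 0.9 CPM in SW48.

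Feedback genes of ERK signaling were split by gene. Of 18 tested, 6 were higher in RKO and 4 in SW48 (median 0.69). SPRY4, an inhibitor of the pathway, was at 696, 731, 664 and 633 CPM in RKO and 190, 194, 149 and 171 CPM in SW48 (1.93 ± 0.10, adjusted p = 7.20e-09), and ETV5, an ETS factor, at 152 ± 9 and 61.5 ± 3.5 CPM. DUSP4, a nuclear phosphatase of ERK, was at 1.85 to 2.92 CPM in RKO and 404 to 515 CPM in SW48 (-7.62 ± 0.16, adjusted p = 2.94e-12), while DUSP6, its cytoplasmic relative, was not called, at 285 ± 11 and 203 ± 29 CPM.

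**Figure D4:**
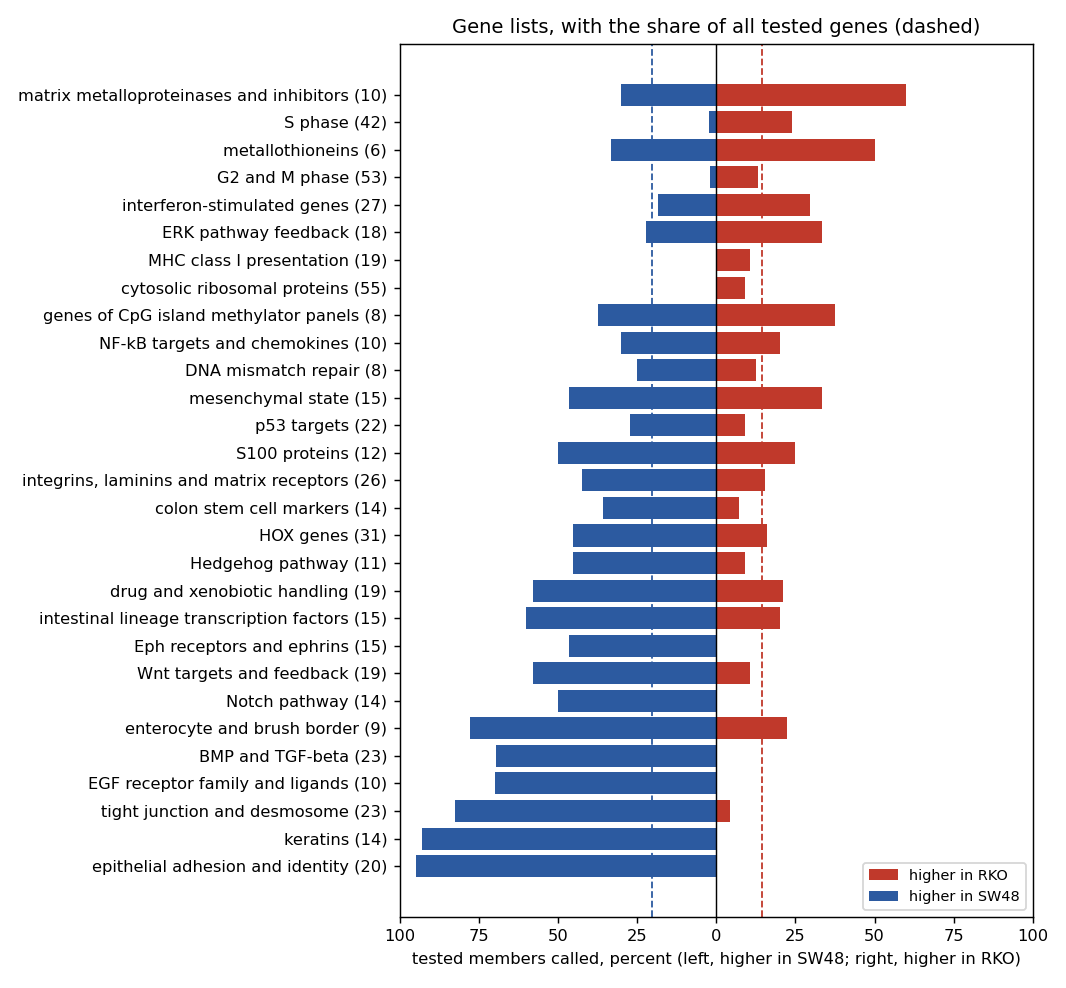
Percent of the tested members of each gene list with 5 or more members tested (number tested in parentheses) called higher in SW48 (blue, to the left) or in RKO (red, to the right), with dashed lines at the shares of all tested genes, 20.2% and 14.3%. Adhesion, keratin and junction genes extend farthest to the left, and matrix proteases and their inhibitors farthest to the right.

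The matrix and adhesion receptors differed by subunit. Of 26 tested integrins, laminins and matrix receptors, 11 were higher in SW48 and 4 in RKO (median -0.77). These are 42.3% and 15.4%, beside 20.2% and 14.3% of all tested genes, so the share higher in RKO lay near that of all genes. Hemidesmosome components were higher in SW48, with ITGB4 at 0.948, 0.863, 0.833 and 1.73 CPM in RKO and 2687, 1883, 1229 and 1310 CPM in SW48 (-10.65 ± 0.37, adjusted p = 1.68e-10), COL17A1 at 0.340 ± 0.177 and 1086 ± 250 CPM, and the laminin chain LAMA3 at 0.0485 ± 0.0329 against 260 ± 45 CPM. LAMB3, another laminin chain, was not called, at 1381 to 1433 CPM in RKO and 742 to 2742 CPM in SW48. RKO therefore held LAMB3 at a high level and LAMA3 near the floor. ITGB1 and ITGA5, which pair as the fibronectin receptor, were higher in RKO, at 2253 ± 173 against 435 ± 41 CPM and 231 ± 10 against 15.9 ± 2.1 CPM.

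Of 10 tested matrix proteases and inhibitors 6 were higher in RKO and 3 in SW48 (median 1.45). PLAU, the protease urokinase, was higher in RKO, at 141 ± 12 and 20.8 ± 6.2 CPM. TIMP1, a metalloproteinase inhibitor, was at 1197, 1089, 1548 and 1422 CPM in RKO and 414, 499.5, 306 and 341 CPM in SW48 (1.73 ± 0.17, adjusted p = 1.72e-06). The RKO libraries lay above all SW48 libraries in both genes. TIMP1 and TIMP2 went opposite ways, and TIMP2 was higher in SW48, at 2.86 ± 0.97 against 146 ± 39 CPM. Of 12 tested S100 calcium-binding proteins 3 were higher in RKO and 6 in SW48 (median -1.24). S100A2 was at 2802 ± 341 CPM in RKO and 116 ± 11 CPM in SW48, and S100A4 at 0.199 ± 0.042 and 118 ± 18 CPM. Among 6 tested metallothioneins, 3 were higher in RKO, led by MT2A at 866 ± 145 against 79.1 ± 50.1 CPM, and 2 in SW48.

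HOX genes, which hold a cell's position along the body axis, differed in both directions. Of 31 tested, 14 were higher in SW48 and 5 in RKO (median -0.875). These are 45.2% and 16.1%, beside 20.2% and 14.3% of all tested genes. The share higher in RKO thus lay near that of all tested genes. HOXB9 was at 46.2, 47.7, 44.3 and 51.4 CPM in RKO and 557, 447, 573 and 596 CPM in SW48 (-3.54 ± 0.11, adjusted p = 6.08e-11), and HOXB6 and HOXB8 were also higher in SW48, at 7.38 ± 0.64 against 83.5 ± 8.7 CPM and 8.10 ± 0.87 against 119 ± 18 CPM. Higher in RKO were HOXC8, at 17.2 ± 1.2 against 0.649 ± 0.332 CPM, HOXC11, at 12.9 ± 0.9 against 0.240 ± 0.089 CPM, and HOXD9, at 11.3 ± 0.8 against 0.0328 ± 0.0379 CPM. HOXB2 and HOXA7 were not called, at 23.2 ± 0.9 against 17.6 ± 1.1 CPM and 27.2 ± 2.0 against 20.02 ± 2.6 CPM.

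Interferon-stimulated genes were split between the lines, and few MHC class I genes were called. Of 27 tested interferon-stimulated genes 8 were higher in RKO and 5 in SW48 (median 0.11). These are 29.6% and 18.5%, beside 14.3% and 20.2% of all tested genes. BST2, tetherin, was at 284, 276, 332 and 314 CPM in RKO and 0.336, 0.320, 0.584 and 0.663 CPM in SW48 (9.27 ± 0.17, adjusted p = 1.43e-12), and IFITM2, a membrane protein that blocks viral entry, at 172 ± 21 and 0.0636 ± 0.0482 CPM. Its neighbor in function IFITM3 was at 72.2 ± 9.6 and 71.3 ± 11.8 CPM (adjusted p = 0.990). In the MHC class I list 17 of 19 tested genes were not called and none was higher in SW48. B2M, the light chain of class I, was the main exception, at 486, 483, 593 and 550 CPM in RKO and 129, 124, 125 and 129 CPM in SW48 (2.04 ± 0.09, adjusted p = 1.81e-09).

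Of 8 tested mismatch repair genes 2 were higher in SW48 and 1 in RKO (25% and 12.5%, beside 20.2% and 14.3% of all tested genes). MSH3, a sensor of mismatched loops, was lower in RKO, at 5.10, 6.29, 5.60 and 4.52 CPM against 35.7, 30.9, 44.05 and 40.9 CPM in SW48 (-2.83 ± 0.14, adjusted p = 5.36e-09), and PMS2, an endonuclease of mismatch repair, at 8.50 ± 0.92 against 31.3 ± 4.1 CPM. The libraries of the lines did not overlap in either gene, and both genes were named for their small p-values.

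Genes of CpG island methylator panels, named for promoters that such tumors methylate, differed between the lines in both directions. Of 20 listed genes 12 were not tested, and of the 8 tested 3 were higher in RKO and 3 in SW48. MGMT, which repairs alkylated guanine, was at 41.4, 45.7, 50.7 and 50.4 CPM in RKO and 0, 0, 0.0584 and 0 CPM in SW48 (10.89 ± 0.28, adjusted p = 1.33e-11). HIC1, a repressor, was at 8.08 ± 1.06 and 0.209 ± 0.086 CPM, and CDKN2A, the p16 cell cycle inhibitor, at 0.105 ± 0.092 and 2.09 ± 0.80 CPM. The last gene was low in both lines. Methylation itself was not measured here.

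Across all 6 lines, 21 genes (20 of them annotated as protein-coding) had at most 3 counts in each of the 8 RKO and SW48 libraries and at least 5 CPM in each of the 16 non-LRC libraries of the other 4 lines, and 2 genes had the reverse. The first set held B3GNT3, a glycosyltransferase, with a mean of 131 CPM in the other lines, DNAJC15, a mitochondrial co-chaperone, with 87.4 CPM, and STING1, the DNA-sensing adaptor, with 38.9 CPM. The reverse set was the homeobox genes NKX2-5, at a mean of 16.1 CPM over the 8 libraries, and IRX2, at 11.5 CPM. These genes were named after their values were seen.

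A gene was taken as on in a line when all 4 libraries had at least 5 CPM, and as off when none had more than 3 counts. By this rule 199 genes, 181 of them protein-coding, were on in RKO and off in SW48, and 233, of which 205 protein-coding, were on in SW48 and off in RKO. No read at all was found in the off line for 48 and 55 of the protein-coding genes. Of the 205 on in SW48, 76 were on in all 4 other lines and 38 in none, whereas of the 181 on in RKO, 32 were on in all 4 and 61 in none. Because the rule chose these genes by their levels, the values below are a description.

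The most abundant of the genes on in RKO was MAP1LC3C, an LC3 protein of autophagy on chromosome 1 (242158792 to 242162400, minus strand, GRCh37), at 1033, 1088, 1143 and 1132 CPM, with 3 reads in SW48. RGS4, a G-protein regulator, was at 674 to 683 CPM with 1 read in SW48, a ratio of 41470 with an exact 95% interval for counting error of 7443 to 1638008. HGF, the ligand of the MET receptor, was at 489 to 568 CPM in RKO against 1 read, and FGFR1, an FGF receptor, at 172 to 185 CPM against 2 reads. HGF was at most at a mean of 0.127 CPM in the other 4 lines, while FGFR1 was at 61.04 and 41.25 CPM in DLD1 and HCT15. IFI16, a DNA sensor, was at 323 to 377 CPM with 1 read in SW48, and LCP1, the plastin of leukocytes, at 427 to 485 CPM with 2 reads. The other members of the 10 highest were TTN, G0S2, CTSL and FRMD6, at means of 208 to 608 CPM with 2 to 4 reads in SW48.

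Among genes on in SW48, kallikrein proteases stood out by number, with KLK7, KLK10 and KLK6, neighbors on chromosome 19, within the 10 highest. KLK7 was at 527, 495, 515 and 485 CPM in SW48 with 6 reads in RKO. GPR15, a homing receptor of lymphocytes on chromosome 3 (98250822 to 98253525, GRCh37), was at 332, 356, 461 and 435 CPM with no read in RKO, at least 7936-fold higher (3 counts over the RKO libraries as the floor). GNAT3, the taste G protein gustducin, was at 313 to 441 CPM with 1 read. It lies on chromosome 7 (80087951 to 80141380, minus strand), within the span of CD36 (79998891 to 80308593, plus strand). CD36 was at 2117 to 2649 CPM in SW48 and at most 0.365 CPM in RKO. Whether the reads counted for GNAT3 came from CD36 transcripts was not tested. Both GPR15 and GNAT3 were off in all 4 other lines as well. SERPINB5, maspin, was at 320 to 427 CPM with 4 reads in RKO and was on in all 4 other lines, as was LAMA3. ZBTB7C, TGFB2 and PLK2 completed the 10, at means of 165 to 188 CPM with 1 to 8 reads in RKO.

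Large differences of abundance were also found in genes of other roles. Among the 10 largest differences toward SW48 were 5 mitochondrially encoded genes, MT-ND1, MT-ND2, MT-ND4 and MT-ND5 of complex I and MT-CYB of complex III, whose call was lost under some alternatives, with MT-ND1 at 1350 to 1996 CPM in RKO and 4553 to 5524 CPM in SW48 (-1.70 ± 0.14, adjusted p = 3.85e-07). CD36, a fatty acid receptor, was at 0.365, 0.123, 0 and 0.119 CPM in RKO and 2117, 2307, 2649 and 2395 CPM in SW48 (-13.89 ± 0.28, adjusted p = 2.50e-12). ANXA1, a phospholipid-binding protein, was at 2.60 ± 0.25 and 2213 ± 410 CPM, and SCD, the desaturase of fatty acids, at 858 ± 99 and 3003 ± 910 CPM. In RKO, STC1, the hormone stanniocalcin-1, was at 1824 to 2111 CPM against at most 0.336 CPM, C2CD2 at 1578 ± 132 against 37.2 ± 2.3 CPM, MCL1, an inhibitor of apoptosis, at 1545 ± 121 against 227 ± 13 CPM, and FTL, the ferritin light chain, at 3064 ± 275 against 690.2 ± 168.6 CPM. Each was among the 10 called genes of its direction with the largest difference of mean CPM.

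Of 22 tested p53 targets 14 were not called, 6 were higher in SW48 and 2 in RKO. CDKN1A, the p21 inhibitor of cyclin-dependent kinases, was at 178 to 196 CPM in RKO and 149 to 232 CPM in SW48, with overlapping ranges (-0.12 ± 0.12, adjusted p = 0.388). GDF15, a stress cytokine, was at 0.969 ± 0.229 and 38.7 ± 21.8 CPM, with SW48 replicate 2 the lowest SW48 library at 12.5 CPM.

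Most cell cycle genes were not called, and the counts moved with SW48 replicates 2 and 1. Of 42 tested S phase genes 10 were called higher in RKO and 1 in SW48 (median 0.60), and of 53 G2 and M phase genes 7 and 1 (median 0.44), which are 23.8% and 13.2% higher in RKO beside 14.3% of all tested genes. Without SW48 replicate 2 the counts higher in RKO were 21 and 21 (medians 0.96 and 0.87), and without SW48 replicate 1 they were 8 and 5. The summed level of the S phase list was 3868 to 4146 CPM in RKO and 2129, 3618, 2340 and 2364 CPM in SW48, and that of the G2 and M list 5193 to 5589 CPM in RKO and 2672, 5707, 3360 and 3559 CPM in SW48. Thus SW48 replicate 2 lay close to or above RKO and the other SW48 libraries below it. TYMS, thymidylate synthase, was at 102 to 120 CPM in RKO and 23.8, 87.0, 28.2 and 32.6 CPM in SW48 (1.33 ± 0.33, adjusted p = 0.00336), and AURKA, a mitotic kinase, at 68.1 to 85.7 and 17.9, 48.2, 22.8 and 31.5 CPM (1.29 ± 0.24, adjusted p = 0.000432). HMMR, a spindle protein, was the G2 and M gene higher in SW48, at 3.33 ± 0.57 and 18.6 ± 10.5 CPM. The ratio of proliferating to resting cells in each library was not measured.

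The line difference was unequal between chromosomes. The median log2 difference was 0.577 over 463 tested genes of chromosome 8, 0.421 over 540 of chromosome 9 and 0.373 over 338 of chromosome 20, and -0.452 over 445 of chromosome 14 and -0.286 over 673 of chromosome 7, beside -0.010 over all autosomes. On chromosome 8, 68.3% of the tested genes were higher in RKO by sign and 148 were called higher in RKO against 63 in SW48, and on chromosome 14 the share was 28.3%. Leaving out any 1 library kept the median of chromosome 8 between 0.568 and 0.611 and that of chromosome 14 between -0.469 and -0.414. DNA copy number was not measured here, and its part in the result was not tested. Genes of 1 chromosome share position and were not treated as replicates.

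**Figure D5:**
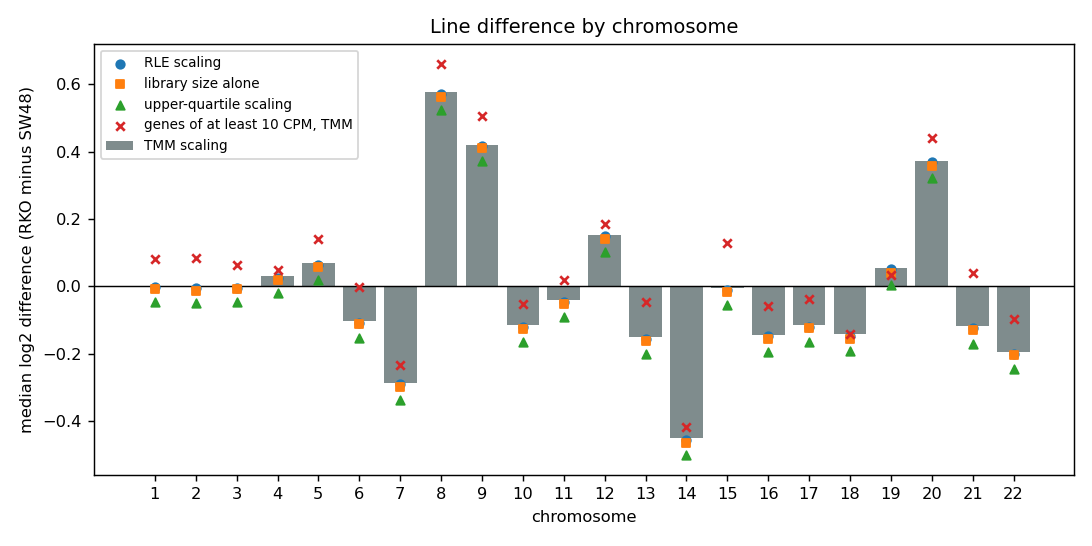
Median log2 difference (RKO minus SW48) of the tested genes of each autosome with TMM scaling (bars), other scalings and a filter on levels (symbols). Chromosomes 8, 9 and 20 stand above 0 and chromosomes 7 and 14 below it under each of them.

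Most cytosolic ribosomal protein genes were not called. Of 55 tested genes 5 were called (9.09%, beside 14.3% of all tested genes), all higher in RKO, and all on chromosomes 8 or 9, which hold 8 of the 55. RPL8, on chromosome 8, was at 4054, 4491, 5116 and 4862 CPM in RKO and 2272, 1718, 1909 and 2040 CPM in SW48 (1.204 ± 0.12, adjusted p = 3.12e-06). RPL7A, on chromosome 9, was at 3892 ± 383 and 1658 ± 241 CPM (1.21 ± 0.13, adjusted p = 4.78e-06). The other three called were RPL7 and RPL30 on chromosome 8 and RPL35 on chromosome 9. Over the 8 genes of these chromosomes the median log2 difference was 1.149, and over the 47 others it was 0.26, with a range from -0.74 to 0.81. The chromosomes were grouped with these results known, so the contrast of the medians is a description and not a test. Chromosome 20, with a median of 0.373 over its tested genes, was among the others. The ranges overlapped, since the 8 genes ran from 0.33 to 1.26, and RPS20, RPL12 and RPS6 among them were not called.

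Markers of other cell types were examined since the lines are grown without stroma. Of 16 leukocyte markers 8 had no read in any library, the T and B cell markers CD3E and MS4A1 among them. The summed level of the list, 963 to 1091 CPM in RKO and 44 to 81.7 CPM in SW48, came mostly from CD68, a lysosomal protein, at 1041 ± 56 and 47.8 ± 14.01 CPM. PTPRC, the CD45 phosphatase of blood cells, had no read in RKO and was at 12.2, 7.11, 21.1 and 18.9 CPM in SW48. Of 15 fibroblast and endothelial markers matched, 7 had no read, COL3A1 and CDH5 among them, and the summed level was 2.12 to 3.15 CPM in RKO and 2.33 to 3.16 CPM in SW48. The 13 leukocyte markers and 13 fibroblast and endothelial markers too low to be tested were each at a mean of at most 0.518 and 0.511 CPM in both lines. The part of other cell types in the results was not tested.

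The remaining lists were stem cell, drug handling, NF-kB, cancer-testis, CEACAM and MHC class II genes. Of 14 tested stem cell markers 5 were higher in SW48, led by PROM1, the CD133 antigen, at 0.0149 ± 0.0298 and 69.0 ± 9.9 CPM, and 1 in RKO, the RNA-binding protein MSI1, at 62.5 ± 2.7 and 0.0146 ± 0.0292 CPM. Drug and xenobiotic genes were higher in SW48 for 11 of 19 and in RKO for 4, with the transporter ABCC3 at 0.166 ± 0.066 and 98.9 ± 12.9 CPM and the glutathione transferase GSTM3 at 41.6 ± 5.3 and 0.217 ± 0.113 CPM. Among 10 tested NF-kB targets 2 were higher in RKO and 3 in SW48, the cytokine IL18 at 0.0682 ± 0.0625 and 102 ± 39 CPM. Of 27 cancer-testis genes 26 were not tested and PRAME was the only one called, at 64.1 ± 3.6 CPM in RKO and 0.703 ± 0.479 CPM in SW48. CEACAM genes and MHC class II genes each had 2 members tested and 1 called, higher in SW48.

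The LRCs of the same cultures gave a second view of the line difference, although they are not independent of the non-LRCs. Of 13681 genes tested in the LRCs, 2063 (15.1%) were higher in RKO and 2434 (17.8%) in SW48. Of the 4650 genes called in the non-LRCs, 4548 were tested in the LRCs, 3774 (83.0%) were called there the same way and 2 the other way. CDH1 was at means of 1.02 and 610.0 CPM in RKO and SW48 LRCs, and ZEB1 at 318 and 1.354 CPM. The line difference itself differed between LRCs and non-LRCs, by at least 1 on the log2 scale and an adjusted p under 0.05 for the interaction, in 308 of 14240 genes (2.16%), in 272 toward RKO in the LRCs and in 36 toward SW48. HES1 had the largest such change among the named genes, with a line difference of -7.36 in non-LRCs and -3.38 in LRCs (interaction 4.01, adjusted p = 5.44e-06).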

How the data were processed

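RNA of sorted CFSE-labeled spheroid cells was sequenced as 50 bp single-end reads. Each deposited file holds 1 library's unnormalized counts for 54127 Ensembl genes, made by the authors from alignments to hg19 (GRCh37). The submitters' processing notes name TopHat, HTSeq and DESeq, with versions not given in the sources used here. By default HTSeq leaves multiply mapped reads unassigned, so genes with near-identical copies are uncertain. Symbols and positions of 47098 genes came from GENCODE release 44 on GRCh37. Groups and replicate numbers were taken from the labels.

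Genes reaching 10 counts in 4 or more of the compared libraries were tested with edgeR 4.0.16 in R 4.3.3 (quasi-likelihood test, TMM scaling, group means of line, Benjamini-Hochberg adjustment), and called at an adjusted p under 0.05 and a log2 difference of at least 1. The CPM values printed were scaled by TMM over 32 libraries, and read as mean ± SD with n = 4. DESeq2 1.42.0 was an alternative. Same-numbered libraries did not deviate together, so no block was used. Counting intervals are exact binomial at 95% and cover counting error only. No 2 libraries held identical counts, and chi-square statistics per gene of 3.12 to 55.3 over 12 replicate pairs exceeded counting noise.

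Genes were named by a rule: the 10 most abundant on and off genes per direction, the 10 largest CPM differences per direction, the members of each list with the smallest p-values or, not called, the highest levels, and 19 textbook markers. The members and the lists were chosen with earlier results of these data known. Y-linked genes and XIST are not named. The test was tried on simulated counts. Some genes are not reported here.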

Additional observations from a re-analysis of the deposited data

Results flagged for a closer look

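Among 411 groups of 4 libraries (named genes with a mean of 1 CPM or more in a line), 24 held a library far from the other three by Dixon's test, where chance gives about 1 in 20. Of these, 19 were in SW48 and 16 of them were SW48 replicate 2, the library that stands apart. In SW48 replicate 2, MCM4 was at 287.5 CPM, PCNA at 182.1, TYMS at 86.98 and EXO1 at 33.18, all genes of DNA replication or repair. Each of these lay above the other SW48 libraries. The same library held CDH1 at 412.2 CPM, COL17A1 at 714.6, RNF43 at 394.5 and NOTCH1 at 76.99, each below the other SW48 libraries. PKP2 at 46.24 CPM and KLK10 at 374.9 lay above them. SW48 replicate 2 also held CALR at 1171 CPM, GSTP1 at 574.5, MT1E at 55.4, IFI30 at 35.23, ALDH1A1 at 9.351 and CA2 at 5.316. These too lay above the other SW48 libraries. SW48 replicate 1 had NOTCH2 at 125.9 CPM, below the other SW48 libraries, and RAB25 at 122.4, above them. SW48 replicate 3 had CLDN12 at 45.22 CPM, above the others. In RKO, replicate 3 had ICAM1 at 78.32 CPM and PROX1 at 1.439, below the other RKO libraries, and IFI30 at 21.36, above them. RKO replicate 4 had SOCS1 at 3.986 CPM and ITGB4 at 1.725, both above the others.

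For 20 named genes the line difference (RKO minus SW48, log2) differed between LRCs and non-LRCs in edgeR's interaction test (adjusted p under 0.05, a change of at least 1). Toward RKO in the LRCs, the change was 4.0093 for HES1, 2.9467 for GDF15, 2.6825 for CDKN2A, 2.0617 for PLK2, 1.8284 for SMAD3 and 1.8237 for SOX9. It was 1.6418 for EPHB3, 1.6410 for CDH3, 1.5048 for SPATA18, 1.4987 for HLA-DMA, 1.4484 for CAV1 and 1.4367 for TPM2. Smaller changes of 1.2399, 1.1446, 1.0767, 1.0591 and 1.0574 were found for IFIT2, ST14, RRM2B, NOTUM and HOXA3. Toward SW48 in the LRCs, it was -2.8554 for MSN, -2.5163 for IFITM2 and -1.1201 for CDKN1A. Some of these changes rest on few reads in a line near the floor. In SW48, MSN had a mean of 0.052 CPM in non-LRCs and 0.4425 CPM in LRCs, and IFITM2 0.0636 and 0.3399 CPM. In RKO, CDKN2A had 0.1045 and 0.3331 CPM, and PLK2 0.1383 and 1.125 CPM.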

How the results depend on the processing

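Of 259 named genes tested, 243 kept their call under every alternative in which they were tested, and 16 did not, 8 of them without SW48 replicate 2. A gene that an alternative did not test was not counted as a change. No gene value reversed. Of 557 list medians, 31 moved. Requiring 10 counts in every library left 1166 genes higher in RKO and 1576 in SW48, and 107 named genes called instead of 204, since genes near 0 in a line are then not tested. A log2 difference of at least 2 left 889 and 1513. With 1 CPM as on, 819 genes were on in 1 line and off in the other (332 on in RKO, 487 on in SW48), with 0 counts as off 125 (62 and 63), and with 10 CPM as on 153 were on in SW48. Leaving out 1 library gave 1917 to 2110 genes higher in RKO and 2691 to 2786 in SW48. With the replicate block the counts were 1957 and 2713. The deviations of same-numbered libraries from their line means correlated at -0.172 to 0.036 between the lines, so the numbers were not taken as pairing. A block of culture, added after seeing the data, gave 401 genes with an interaction instead of 308. Depth limits statements on genes at or under 3 counts per library.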
